A study of Mus musculus with 12 samples.

Results

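Accessible domains that were listed in motor neuron (MN) progenitors and were missing at day 4 from cells induced to express Hoxc9, but from no other day 4 group, are described here. A progenitor domain of at least 150 bp on chromosomes 1 to 19, X or Y was included when it overlapped, by 1 bp or more, a domain of the no Dox control, of iHoxc6 and of iHoxc10, and no domain of iHoxc9. The rule found 2605 domains. They come from 87916 progenitor domains, of which 41544 reached the minimum width. Of the 27853 domains held by the no Dox, iHoxc6 and iHoxc10 lists, these 2605 made up 9.35% (95% Wilson interval 9.02 to 9.70%). By the same rule 1737 of 26985 (6.44%) were missing from iHoxc10 only and 206 of 25454 (0.809%) from iHoxc6 only, while 13302 (32.0%) of all progenitor domains of the minimum width had no iHoxc9 domain. The choice used the domain lists of 5 groups, so absence from iHoxc9 and presence in the others are properties of the rule and not findings. The number depends on the rule's settings: 819 domains were left when the domains of the other 3 lists had to cover at least 50% of the progenitor domain, and 4179 were found with no minimum width.

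ATAC-seq marks DNA that a transposase can reach, and was run on mouse embryonic stem cells grown as embryoid bodies (EBs). The labels give 12 samples in 6 groups, with 2 samples per group. EBs without patterning and progenitors after 2 days of retinoic acid (RA, 1 µM) and the Hedgehog agonist SAG (0.5 µM) came from the Ainv15(iCre) line. The iHoxc6, iHoxc9 and iHoxc10 groups came from the lines Ainv15(iFlag.Hoxc6), Ainv15(iFlag.Hoxc9) and Ainv15(iFlag.Hoxc10), in which doxycycline (Dox) switches on a Flag-tagged Hox gene. They received RA and SAG for 4 days and Dox (3 µg/mL) for the last 48 h. The no Dox control had RA and SAG for 4 days, came from Ainv15(iFlag.Hoxc6), and belongs to another set of sample records. Its list carries another day in its name than its label does, together with a p setting that the other lists lack. It is called a day 4 group here after its label, so values of no Dox, and of domains held by all 4 day 4 lists, hold only if the label is right. Day 4 cultures hold postmitotic MNs together with interneurons, so fewer cells of a type and closed chromatin within a type cannot be told apart. Each induced Hox gene was represented by 1 line, so line and transgene cannot be told apart either.

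Hox genes encode homeodomain transcription factors that give cells along the head to tail axis their regional identity. In the spinal cord Hoxc6 is used at brachial levels, Hoxc9 at thoracic levels and Hoxc10 at lumbar levels, and their choice sets which motor columns form. RA acts through nuclear receptors that bind repeats of a short core string, and it switches on the anterior Hox genes early in this differentiation. Accessible domains away from gene starts are often enhancers, which may open or close as progenitors become neurons.

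The deposited lists hold 1 set of coordinates per group, made from both replicates, with no height, read count or p-value. Read depth is unknown and the lists give no value per replicate, so shares are given with 95% Wilson intervals that cover the counting of domains only, and no test across replicates could be made. The iHoxc9 list had 63504 domains covering 17.8 Mb, and the iHoxc10 list had 56232 covering 20.1 Mb. The other 4 lists had 87916 to 94875 domains covering 23.1 to 29.7 Mb. Even the domains held by all 4 day 4 lists were narrowest in iHoxc9, with a median of 432 bp against 519 bp in iHoxc10, 593 bp in iHoxc6 and 724 bp in no Dox. A weaker library or stricter call in iHoxc9 and a loss of accessibility cannot be told apart from these lists. Promoters of the ventral progenitor markers carried a domain in every list (5 of 5 genes), and those of MN markers did so for 6 of 6 genes in each list but iHoxc9, where 5 did. Both classes were also complete in EBs, so they do not tell the cell types of these lists apart. Interneuron marker promoters carried a domain for 5 of 5 genes in no Dox and for 3 in each induced list. Those of neural crest markers did so for 1 of 3 genes in iHoxc10, 2 in both other induced lists and 3 in no Dox. The part of these markers in the results was not tested. The coding sequence of the induced gene was covered to 77.2% for Hoxc6 in iHoxc6 and to 45.6% for Hoxc10 in iHoxc10. For Hoxc9 it was covered to 60.0% in iHoxc9 against 17.9% in no Dox, 5.77% in iHoxc6 and 0% in iHoxc10. It was also covered to 62.7% in progenitors, which carry no induced Hoxc9.

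Sequences of members are shown first, from the forward strand of GRCm38 as given by RefSeq. The set inside the Hox clusters shows members at the induced gene's own family, the distal pair shows the widest members, and a set of 150 bp centers was chosen after their values were seen because each holds 3 or more copies of AGGTCA or GGGTCA, the core strings of nuclear receptors such as the RA receptors. Capitals mark those strings or their reverse complements. The Hoxd3 and Hoxb3 stretches lie in introns of these genes, at chr2:74730792-74731091 and chr11:96324243-96324542, the Hoxb2 stretch (chr11:96352903-96353202) is centered on a coding exon, and the Hoxb4 stretch (chr11:96315097-96315396) is intergenic. The Def8 stretch (chr8:123427453-123427752) is intronic and the Pou3f3 stretch (chr1:42107948-42108247) is intergenic.
Hoxd3: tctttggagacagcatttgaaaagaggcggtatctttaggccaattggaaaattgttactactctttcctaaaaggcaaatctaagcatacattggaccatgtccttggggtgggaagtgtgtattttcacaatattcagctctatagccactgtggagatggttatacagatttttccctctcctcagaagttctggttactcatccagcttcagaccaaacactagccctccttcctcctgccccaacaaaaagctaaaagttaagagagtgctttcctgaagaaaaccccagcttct
Hoxb2: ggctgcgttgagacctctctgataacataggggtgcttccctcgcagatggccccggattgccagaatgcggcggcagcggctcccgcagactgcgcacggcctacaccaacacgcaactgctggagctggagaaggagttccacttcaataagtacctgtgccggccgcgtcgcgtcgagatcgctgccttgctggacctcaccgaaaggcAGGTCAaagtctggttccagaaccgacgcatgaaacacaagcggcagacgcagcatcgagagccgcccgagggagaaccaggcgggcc
Hoxb4: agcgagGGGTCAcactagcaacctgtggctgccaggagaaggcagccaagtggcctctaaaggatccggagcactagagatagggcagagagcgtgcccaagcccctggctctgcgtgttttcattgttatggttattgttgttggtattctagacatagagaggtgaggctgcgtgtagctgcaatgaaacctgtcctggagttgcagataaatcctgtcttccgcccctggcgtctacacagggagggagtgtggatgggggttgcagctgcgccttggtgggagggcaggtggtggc
Hoxb3: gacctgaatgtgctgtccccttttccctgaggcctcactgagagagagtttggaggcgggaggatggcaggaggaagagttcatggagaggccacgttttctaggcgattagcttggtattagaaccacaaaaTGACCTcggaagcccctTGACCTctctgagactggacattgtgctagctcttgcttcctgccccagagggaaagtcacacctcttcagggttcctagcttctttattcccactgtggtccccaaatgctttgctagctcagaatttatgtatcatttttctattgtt
Def8: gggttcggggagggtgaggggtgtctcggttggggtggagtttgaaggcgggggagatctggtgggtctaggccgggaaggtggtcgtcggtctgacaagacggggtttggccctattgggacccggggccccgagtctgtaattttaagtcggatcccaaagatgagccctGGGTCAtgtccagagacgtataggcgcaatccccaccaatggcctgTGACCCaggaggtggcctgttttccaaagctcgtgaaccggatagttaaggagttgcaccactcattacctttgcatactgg
Pou3f3: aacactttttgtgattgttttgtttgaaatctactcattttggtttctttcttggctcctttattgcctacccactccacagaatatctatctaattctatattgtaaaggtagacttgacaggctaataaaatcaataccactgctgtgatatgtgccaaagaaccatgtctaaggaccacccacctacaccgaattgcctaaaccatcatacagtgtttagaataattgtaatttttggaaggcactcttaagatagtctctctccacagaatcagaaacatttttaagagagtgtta
Of the 23 distal members with 3 or more core strings, those printed are the center nearest to Irx3 (chr8:91818971-91819120), which alone holds 4, and the widest with 3, nearest to Lrfn2 (chr17:48774484-48774633) and Nxpe4 (chr9:47895212-47895361). All are intergenic.
Irx3: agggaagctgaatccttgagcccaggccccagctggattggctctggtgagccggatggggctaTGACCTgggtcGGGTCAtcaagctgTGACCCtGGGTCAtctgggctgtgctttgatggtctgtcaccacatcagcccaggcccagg
Lrfn2: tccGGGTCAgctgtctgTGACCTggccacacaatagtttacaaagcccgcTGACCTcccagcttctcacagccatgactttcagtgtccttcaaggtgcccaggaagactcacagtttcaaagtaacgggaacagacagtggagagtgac
Nxpe4: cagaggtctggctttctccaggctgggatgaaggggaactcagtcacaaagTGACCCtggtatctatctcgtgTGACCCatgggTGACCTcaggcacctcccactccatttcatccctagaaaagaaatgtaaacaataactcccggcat
The Irx3 center holds 4 core strings within 150 bp, and the Hoxb3 stretch holds 2. The member around the Irx3 center is 452 bp wide and measured 285 bp in no Dox, 253 bp in iHoxc6 and 152 bp in iHoxc10. That of Lrfn2 is 780 bp wide and measured 1110, 474 and 452 bp in the same lists, and that of Nxpe4 is 717 bp wide and measured 548, 129 and 637 bp. Only the Nxpe4 member of these was wider in iHoxc10 than in iHoxc6.

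Members were narrow, distal and poor in CpG. Their median width was 340 bp (lower quartile 240 bp), against 599 bp for the 25248 domains held by all 4 day 4 lists, here called retained. Only 11.4% of members (298 of 2605, interval 10.3 to 12.7%) lay within 1 kb of a protein-coding transcription start site (TSS), against 50.6% of retained domains (19.8% after weighting to the members' width and GC classes), and the median distance to the nearest TSS was 30.7 kb against 0.819 kb. At their midpoint 47.3% of members were intronic, 42.3% intergenic, 4.68% in a UTR, 2.61% in a coding exon and 3.11% in a noncoding exon. The central 150 bp had a median GC content of 48.7% and a mean of 3.37 CpG, against 59.3% and 9.11 CpG in retained domains. With promoters left out, the median GC content was 48.0% in members and 50.7% in retained domains. These traits were shared with the 1737 domains missing from iHoxc10 only, which had a median width of 297 bp, a GC content of 48.7% and a promoter share of 14.0%.

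Read the other way, the share of domains that went missing from iHoxc9 depended on what kind of domain it was. Of those held by the other 3 day 4 lists, 17.2% were missing among those under 250 bp, 15.3% from 250 bp to under 500 bp and 4.15% at 500 bp or more. The share was 15.6% for distal domains and 2.28% for promoter domains. It was 25.9% for domains without an EB domain and 4.67% for those with one. The pattern was not particular to iHoxc9. From narrow to wide class, 654, 816 and 267 domains were missing from iHoxc10 only, beside 3498, 6822 and 14928 retained ones. Of those missing from iHoxc10 only, 1494 were distal and 243 at promoters, beside 12484 and 12764 retained ones. Width is the nearest the lists come to domain strength, and its part in the loss was not tested.

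**Figure D1:**
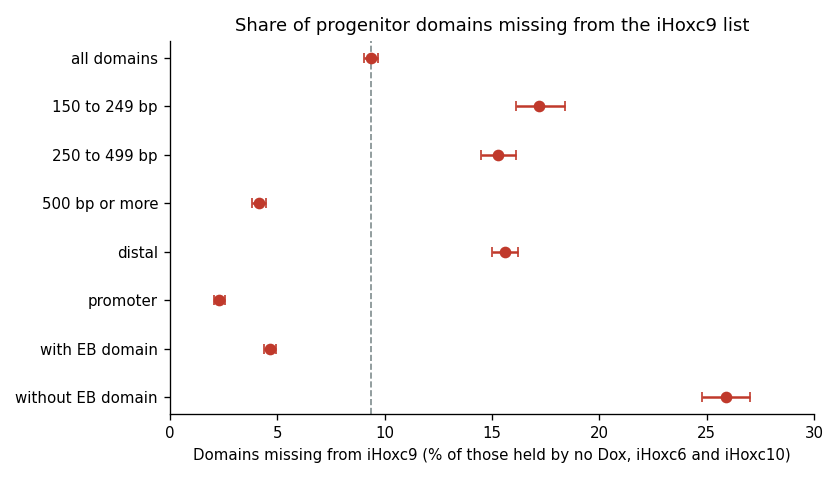
Share of progenitor domains missing from the iHoxc9 list (x axis, percent of those held by the no Dox, iHoxc6 and iHoxc10 lists) by class of domain (y axis), with 95% Wilson intervals and a dashed line at 9.35% for all domains. Distal domains (15.6%) and those without an EB domain (25.9%) lie above the line, and promoter domains (2.28%) below it.

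Whether a member was already accessible before patterning was not used by the rule. An EB domain overlapped 38.9% of members (1014 of 2605, interval 37.1 to 40.8%), against 81.9% of retained domains. The retained share was 65.1% after weighting to the width and GC classes of the members. Of the domains missing from iHoxc10 only, 56.5% had an EB domain (55.2% weighted), and of the 2854 missing from iHoxc9 and iHoxc10 but held by no Dox and iHoxc6, 29.7% did (34.7% weighted). The members thus lay between those sets. Among distal domains the shares were 33.7% for members, 65.4% for retained, 51.9% for those missing from iHoxc10 only and 26.6% for those missing from both. The order was the same under 250 bp (41.8, 71.8, 60.4 and 33.4%, in that order of sets) and at 500 bp or more (36.2, 89.8, 50.6 and 32.3%), where the intervals of members (32.6 to 40%) and of domains missing from both (28.0 to 37.0%) overlapped. With the no Dox list left out of the rule the shares were 39.8% of members and 81.8% of retained domains.

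**Figure D2:**
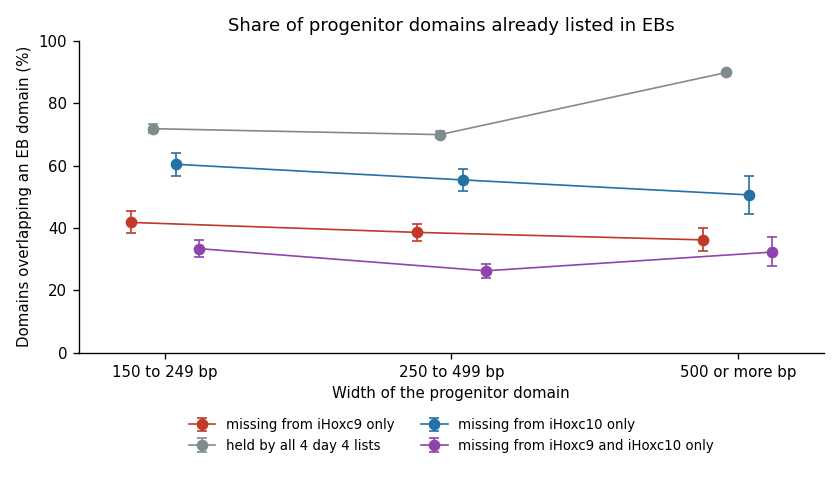
Share of progenitor domains that overlap an EB domain (y axis, percent) by width class of the progenitor domain (x axis), with 95% Wilson intervals and 1 color per set. Members, in red, sit at 36.2 to 41.8%, below the domains missing from iHoxc10 only (50.6 to 60.4%) and the retained domains (69.9 to 89.8%).

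Members with and without an EB domain differed in kind. The 1014 with one had a median GC content of 53.3% and a promoter share of 23.3%, and the 1591 without had 46.7% and 3.90%. A split in promoter share was not particular to members. With and without an EB domain it was 60.5 and 5.30% in retained domains. It was 21.0 and 4.90% in those missing from iHoxc10 only, and 18.3 and 4.64% in those missing from both. GC content and the string shares that follow were compared within members only. The SOX string ACAATG, in the center of 7.89% of the former, was in 20.6% of the latter, and the Hox core TAAT was in 36.4% against 61.6%. Both groups were of like width, at medians of 338 and 343 bp. Base composition moves with these string shares, and its part in them was not tested.

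The domains that overlapped members were narrower from one list to the next. A width in a list is the summed full width of its domains that overlap the member, so it may reach outside the member. Their median width was 340 bp in progenitors, 333 bp in no Dox, 256 bp in iHoxc6 and 181 bp in iHoxc10. The width in iHoxc10 divided by that in no Dox had a median of 0.599 over members and 0.767 over retained domains, while the same ratio for iHoxc6 was 0.827 and 0.861. Within width classes the iHoxc10 ratio was 0.635, 0.619 and 0.545 for members and 0.778, 0.726 and 0.774 for retained domains, from the narrowest to the widest class. Widths in the no Dox list may carry other calling settings. Against the progenitor list, whose format is that of the induced lists, the iHoxc10 width ratio was 0.534 for members and 0.867 for retained domains, and the iHoxc6 ratio 0.725 and 0.963. Narrow domains in the remaining lists were not particular to members. Domains missing from iHoxc6 only had an iHoxc10 ratio of 0.523, and those missing from iHoxc10 only had an iHoxc9 ratio of 0.314 against 0.762 in retained domains. The widths come from lists that the rule used and are given as a description.

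**Figure D3:**
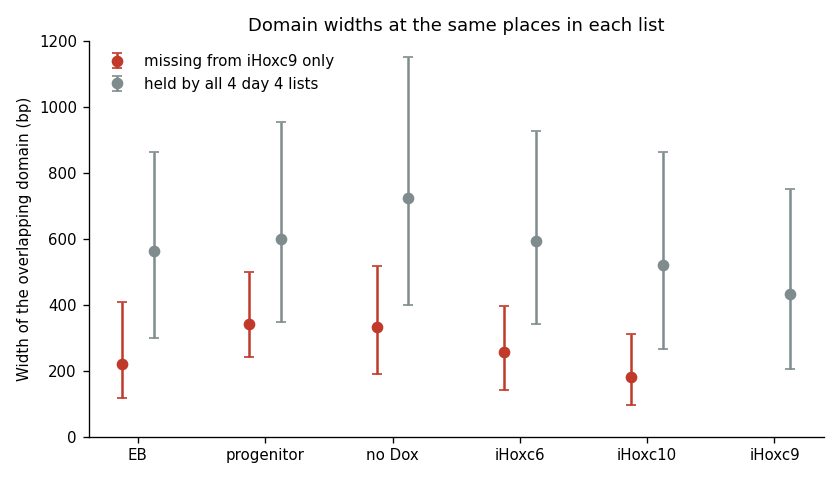
Summed full width of the overlapping domains at the same place in each list (y axis, bp; median as a point, quartiles as bars) for members (red) and retained domains (gray), by list (x axis). Where a place had no domain in a list it was left out, so members have no iHoxc9 value. Member medians fall from 340 bp in progenitors to 181 bp in iHoxc10.

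Few members sat beside any domain of the iHoxc9 list. An iHoxc9 domain lay within 200 bp of 147 members (5.64%) and within 500 bp of 300 (11.5%), and the median distance was 7.77 kb. For domains missing from both posterior lists the share within 500 bp was 8.86% and the median 10.1 kb. Domains gained in iHoxc9, of at least 150 bp and overlapping no progenitor or no Dox domain, lay within 10 kb of 2.92% of members and of 2.49% of retained domains. Distal neighbors within 50 kb of a member were themselves missing from iHoxc9 in 20.2% of cases (606 of 3002), against 14.3% around retained domains (2396 of 16708). Neighboring domains are not independent, so no interval is given for this difference. By chromosome the share missing ran from 2.86% (Y, 1 of 35) and 6.02% (X) to 10.6% (11 and 19).

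Short Hox strings were about as frequent in members as in retained domains of like width and GC, and strings joining Hox and PBX sites were not. In the central 150 bp, counted on both strands, TAAT, the core of central Hox proteins, was in 51.8% of members (interval 49.9 to 53.7%), in 30.4% of retained domains and in 39.7% of all progenitor domains of the minimum width. After weighting to the members' width and GC the retained share was 51.0%, that of domains missing from iHoxc10 only 47.7% and that of domains missing from both 50.1%. TTTAT, the core of posterior Hox proteins, was in 28.9% of members (27.2 to 30.7%), 16.8% of retained domains and 22.0% of all progenitor domains. The weighted shares, which carry no interval, were 30.3% for retained domains, 26.2% for those missing from iHoxc10 only and 26.5% for those missing from both. Unweighted, TTTAT was in 25.3% of those missing from iHoxc10 only and in 29.1% of those missing from both. Among distal domains TAAT was in 54.9% of members against a weighted 55.1% of retained domains, and TTTAT in 30.5% against 32.8%. The distal members' TTTAT interval (28.6 to 32.4%) overlapped those of domains missing from iHoxc10 only (27.5%, 25.3 to 29.8%) and from both (30.5%, 28.7 to 32.3%), unweighted. The longer string TGATTTAT, in which a PBX cofactor and a posterior Hox protein bind side by side, was rarer in members than in retained domains, as it was in domains missing from both posterior lists. It was in 0.614% of them (16 of 2605, interval 0.378 to 0.995%) and in 0.850% of all progenitor domains, and its weighted share was 1.67% in retained domains, 1.13% in domains missing from iHoxc10 only and 0.512% in those missing from both. TGATNNAT, which a PBX cofactor and an anterior Hox protein can bind and which also matches TGATTTAT, was in 10.9% of members (9.73 to 12.1%) and in 6.89% of all progenitor domains. Its weighted share was 8.67% in retained domains, 9.82% in domains missing from iHoxc10 only and 8.32% in those missing from both. A string resembling the CTCF site was in 2.3% of members, with 3.52% of all progenitor domains holding it. Its weighted share was 5.15% in retained domains, 3.08% in domains missing from iHoxc10 only and 1.83% in those missing from both, so its low share was not particular to members.

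Over all and over distal domains, nuclear receptor core strings were more frequent in members than in each set they were compared with. Domains missing from both posterior lists came nearest. AGGTCA was in 16.0% of members (interval 14.7 to 17.5%) and 9.99% of all progenitor domains. Its weighted share was 10.7% in retained domains, 9.96% in domains missing from iHoxc10 only and 13.5% in those missing from both. When all 2080 strings of 6 bases were ranked in distal domains by the difference between members and weighted retained domains, a step added after the data were seen, ACAAAG came first (27.8% against 21.5%), AGGTCA second (17% against 11.8%) and GGGTCA next (14.2% against 9.01%). Against domains missing from iHoxc10 only, AGGTCA came first (weighted 10.8%) and GGGTCA second (8.32%). Against domains missing from both, AGGGGG and GGGGGA led, AGGTCA was number 3 (weighted 14.0%) and GGGTCA number 5 (11.2%). ACAAAG resembles the strings that SOX and TCF factors bind. AGGTCA was among the 23 strings searched by name, and GGGTCA was picked from these rankings. As they were joined after the rankings were seen, their shares are a description.

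AGGTCA or GGGTCA was in the center of 27.8% of distal members (641 of 2307, interval 26.0 to 29.6%), 19.4% of distal retained domains (19.6% weighted), 18.3% of those missing from iHoxc10 only and 23.3% of those missing from both, and in 17.6% of all progenitor domains of the minimum width. The share was 31.8% in distal members without an EB domain and 19.9% in those with one, against 25.9% and 15.9% in retained domains. It was 25.0% and 18.8% in domains missing from both, and 19.4% and 17.3% in those missing from iHoxc10 only. With an EB domain, the members' interval (17.3 to 22.9%) overlapped theirs (16.0 to 21.8% and 14.8 to 20.1%). At promoters the share was 14.8% in members, 10.8% in retained domains, 11.5% in domains missing from iHoxc10 only and 16.5% in those missing from both. By the number of strings, 14.2% of distal domains with no such string were missing from iHoxc9, 19.4% with 1 and 29.3% with 2 or more (141 of 481, interval 25.4 to 33.5%). Among domains without an EB domain the same shares were 24.6, 29.4 and 34.0%. For domains missing from iHoxc10 only the shares were 10.8, 10.5 and 7.86%. Pairs spaced by 1 base in the same orientation, one of the arrangements nuclear receptors bind, were in 8 of 2307 distal members (0.347%), 27 of 12484 distal retained domains (0.216%), 0 of 1494 of those missing from iHoxc10 only (upper bound 0.256%) and 9 of 2606 of those missing from both (0.345%). Members and domains missing from both did not differ in this share beyond their intervals.

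**Figure D4:**
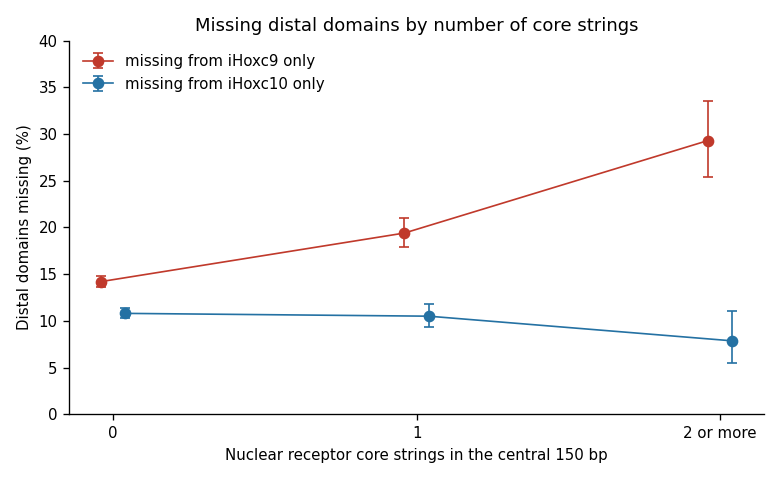
Share of distal domains missing (y axis, percent) by the number of nuclear receptor core strings in the central 150 bp (x axis), for domains missing from iHoxc9 only (red) and from iHoxc10 only (blue), with 95% Wilson intervals; both lines share the retained domains in their denominators. The red points go from 14.2 to 29.3% and the blue from 10.8 to 7.86%. The strings were joined after rankings of these same domains were seen, so both lines are a description.

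By nearest TSS, 2024 of 14092 genes with a domain held by the other 3 day 4 lists (14.4%) had at least 1 member. Tbl1xr1, which encodes a subunit of nuclear receptor corepressor complexes, had 7 members of 15 such domains. All were intergenic, 112480 to 1239562 bp from its TSS. Celf4, an RNA-binding protein of neurons, had 7 of 28, at 62237 to 2118325 bp from its TSS. Gbx2, a homeobox gene of the early neural plate, had 6 of 11, the homeobox gene Zfhx3 6 of 10, and the teneurin gene Tenm4 6 of 19. Stx8, Zfp536, Zmiz1, Dach1 and Frmd4a had 5 each, of 8, 10, 12, 14 and 15. The lists of genes below were read against 9.35% for all domains and 15.6% for distal ones. Genes with many domains collect more members, and nearest TSS does not show which gene a domain acts on.

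The Hox clusters held a larger share of members than that background. The 4 clusters held 15 members of 53 domains (28.3%, interval 18 to 41.6%), with 6 of 14 in HoxD, 5 of 14 in HoxB, 2 of 9 in HoxC and 2 of 16 in HoxA. Domains of a cluster are neighbors and not independent, so this interval covers counting only. In the same clusters 2 of 40 domains were missing from iHoxc10 only. Genes of paralog groups 1 to 5, the anterior Hox genes that RA switches on, had 12 members of 43 domains (27.9%, 16.7 to 42.7%), and those of groups 9 to 13 had 4 of 8. Groups 6 to 8 had 1 of 7. Every cluster member lay nearest to a Hox gene, so these lists count the cluster members again and are no separate result. The widest member in a cluster lay in an intron of Hoxd3 (chr2:74730333-74731550, 1218 bp). It had no EB domain and measured 799 bp in no Dox, 685 bp in iHoxc6 and 624 bp in iHoxc10, and the nearest iHoxc9 domain was 1103 bp away. Hoxb2 had a member of 787 bp centered on a coding exon (chr11:96352660-96353446), 80 bp wide in iHoxc6 and 803 bp in iHoxc10. The Hoxb4 member of 758 bp (chr11:96314868-96315625) was 67 bp wide in iHoxc6 and 291 bp in iHoxc10. The Hoxb3 member of 592 bp (chr11:96324097-96324688) was more even, at 652 bp in no Dox, 549 bp in iHoxc6 and 473 bp in iHoxc10. The other cluster members lay nearest to Hoxa3, Hoxa4, Hoxb7, Hoxb9, Hoxc4, Hoxc12, Hoxd3, Hoxd4, Hoxd9 and Hoxd10, and were 162 to 576 bp wide.

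Genes of the RA response had 15 members of 60 domains (25.0%, interval 15.8 to 37.2%), and 13 of 45 distal ones. Cyp26b1, an enzyme that degrades RA, had 4 of 10, the widest 841 bp long and 287 bp from the TSS, which measured 797 bp in no Dox, 654 bp in iHoxc6 and 158 bp in iHoxc10. Crabp2, which carries RA to its receptors, had 3 of 4. Dhrs3, an enzyme of retinoid metabolism, had 2 of 7. Rxra had 1 of 3, Rarb 1 of 7, Nrip1 1 of 8 and Crabp1 1 of 2. The list shares its rationale with the core strings above and is no independent evidence for them.

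Ventral progenitor factors had 15 members of 81 domains (18.5%, 11.6 to 28.3%). Irx3, which marks progenitors dorsal to those of MNs, had 4 of 9, among them the center with 4 core strings printed above and a domain of 761 bp (756 bp in no Dox, 609 bp in iHoxc6, 446 bp in iHoxc10). Nkx6-1, a homeobox gene required for MN progenitors, had 3 of 15, Olig1 1 of 4 and Olig2 1 of 5. The Olig1 member was 1273 bp wide. Neural Sox genes had 10 of 51 (19.6%, 11 to 32.5%), with 5 of 17 nearest to Sox2 and 4 of 10 nearest to Sox4. Neural crest and dorsal genes had 8 of 28 (28.6%, 15.3 to 47.1%), with 3 of 6 nearest to Foxd3. Glial genes had 9 of 56, with 4 of 16 nearest to Sox9. Interneuron identity genes had 8 of 42 (19%), with 3 of 8 nearest to Pax2.

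The lists tied to MNs and their wiring held the following shares. MN identity genes had 5 of 35 (14.3%, 6.26 to 29.4%), among them 2 of 7 nearest to Isl1 and 1 of 4 to Mnx1. The Isl1 member at chr13:116293845-116294148 was 1 bp from an iHoxc9 domain and 51 bp wide in iHoxc10. The other lay 265943 bp from the Isl1 TSS. The Mnx1 member was 31 bp wide in iHoxc6. Motor column and pool genes had 5 of 37 (13.5%), among them 2 of 7 nearest to Mecom and 1 of 5 to Foxp1. Proneural and Notch genes had 5 of 66 (7.58%, 3.28 to 16.5%), Onecut and Ebf genes 2 of 26, Hedgehog pathway genes 5 of 45, and the PBX and MEIS cofactor genes 6 of 51. Axon guidance genes had 33 of 209 (15.8%, 11.5 to 21.3%), with 4 of 11 nearest to Robo2, 4 of 9 to Nrp1 and 4 of 11 to Nrp2. Cadherins of motor pools had 12 of 70 (17.1%), with 5 of 12 nearest to Cdh11. Caudal timing genes had 3 of 21, pluripotency genes 2 of 16, and mesoderm and endoderm genes 2 of 20. Among distal domains alone, the intervals of the axon guidance list (13.1 to 24.4%), the cadherins (11.8 to 31.8%), the ventral progenitor factors (12.7 to 31.6%) and the neural Sox genes (12.8 to 37.0%) took in the background of 15.6%. Those of Hox groups 1 to 5 (17.2 to 51.6%), the RA response (17.7 to 43.4%) and the neural crest genes (17.2 to 54.6%) did not, nor did that of Hox groups 9 to 13, which rests on 2 domains. High shares were not all particular to iHoxc9. Missing from iHoxc10 only were 4 of 24 neural crest domains (16.7%) and 11 of 69 cadherin domains (15.9%), against 6.44% of all domains. The same counts were 1 of 5 for Hox groups 9 to 13, 1 of 32 (3.12%) for groups 1 to 5 and 3 of 48 (6.25%) for the RA response. The intervals are not corrected for the 20 lists looked at, and they take neighboring domains as independent. Whether an interval took in the background is a description and no test.

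**Figure D5:**
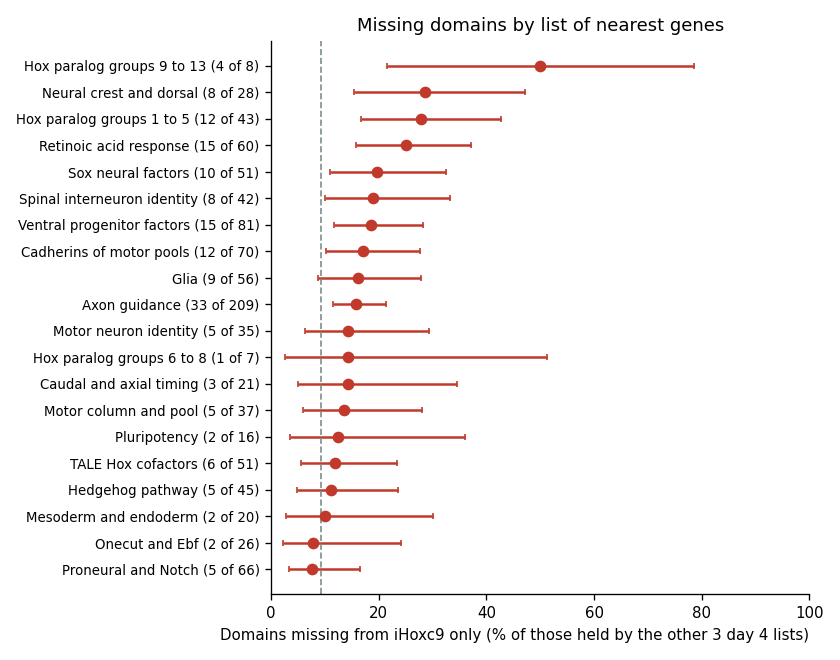
Share of domains missing from iHoxc9 only (x axis, percent of those held by the other 3 day 4 lists) by list of nearest genes (y axis, with the counts), 95% Wilson intervals, and a dashed line at 9.35% for all domains. Hox paralog groups 1 to 5 (27.9%) and the RA response (25.0%) lie above the line with their intervals. So do Hox groups 9 to 13 and the neural crest, ventral progenitor, neural Sox, axon guidance, cadherin and interneuron lists. Proneural and Notch genes (7.58%) and Onecut and Ebf genes (7.69%) lie below it. For distal domains alone the background was 15.6%.

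The widest member, of 2252 bp in an intron of Def8 (chr8:123426477-123428728), had a domain of 4318 bp in no Dox and of 4319 bp in iHoxc6 but only 34 bp in iHoxc10, so its place among the members rests on that short stretch. The second, of 1806 bp (chr1:42107195-42109000), was 586768 bp from the TSS of Pou3f3, had no EB domain, and measured 1008 bp in no Dox, 693 bp in iHoxc6 and 766 bp in iHoxc10. Those nearest to Tmem33 (1798 bp), Ccnd2 (1729 bp) and Ebf3 (1567 bp) measured 447, 791 and 1065 bp in iHoxc10. The member at the Igdcc4 promoter (1631 bp) measured 1741 bp in EBs, 284 bp in no Dox and 52 bp in iHoxc6.

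Near the width threshold, the 91 members less than 10 bp above it were 16.2% of 560 eligible domains, and 59.3% of them had an EB domain. Domains up to 10 bp below it, too narrow to be members, gave 120 of 798 (15.0%), with 60.8% in EBs.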

How the data were processed

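ATAC-seq was run on 12 samples. Per the methods, the authors mapped reads to mm10 (GRCm38) and called domains with DomainFinder. Per the series' design text each list was made from both replicates. The submitters' processing notes name Bowtie2 2.2.2 and Picard 2.8.2. The deposited values are start and end coordinates in bp, 1 list per group, with no count or score. The no Dox list has 6 columns, the other 5 lists 3, and its name gives another day than its label and a p setting, so its calling settings, or its day, may differ. The lists do not say whether starts count from 0, which leaves 1 bp of doubt in each position. Genes and TSS came from GENCODE M21 and sequence from RefSeq GRCm38.p6.

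The members and the gene lists and strings were chosen with earlier results of these data known. Strings were counted on both strands in the central 150 bp. Weighted shares set the width classes (under 250, 250 to under 500, and 500 bp or more) and 5-point GC classes of a comparison set to those of the members. The width given for a member in another list is the summed full width of the domains there that overlap it, and may reach outside it. Promoters were TSS ± 1 kb. Named genes were the 10 with most members, the 4 with most in each list and every Hox gene with one; sites were the 6 widest members and those in Hox clusters (± 5 kb). Some genes that the rule names are not reported here. Genes outside this rule, and the 6-letter ranking, were chosen after values were seen. The interval, string and weighting code was tested on simulated data (28 checks, 0 failed). Python 3.11.15, NumPy 2.4.6, SciPy 1.17.1, pandas 2.3.3 and Matplotlib 3.10.9 were used. Without counts or replicate values no test across samples was made.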

Additional observations from a re-analysis of the deposited data

How the results depend on the processing

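Of 69 values computed under an alternative, 44 stayed near the main value and 25 moved beyond that. Near meant within 1.5 times it for counts and the ratio, and within its 95% interval for shares and GC content. Direction was judged against the unweighted retained value, or a ratio of 1, and 0 values reversed. Member counts have no direction. Against the weighted retained share TAAT did change sides, from 51.8% against 51.0% to 54.9% against 55.1% in distal domains. TTTAT was level with it under the 50% overlap (31.4% each). The number of members was 4179 with no minimum width, 1567 at 300 bp, 646 at 500 bp, and 819 when the no Dox, iHoxc6 and iHoxc10 domains had to cover at least 50% of the progenitor domain. The ratio of domains missing from iHoxc9 only to those missing from iHoxc10 only was 1.5. It was 1.23 with no minimum width, 1.83 at 300 bp, 2.19 with lists cut to equal length, 2.42 at 500 bp and 2.46 under the 50% overlap. The share of members with an EB domain was 42.4% with no minimum width, 36.2% at 500 bp, 31.1% under the 50% overlap and 32.6% with lists cut to equal length. The promoter share was 9.28% under the 50% overlap, 9.67% with no iHoxc9 domain within 500 bp and 22.4% for TSS ± 5 kb. The median GC content was 50% with no minimum width, and 48.0% at 300 bp, at 500 bp and in distal domains. TTTAT was in 26.2% of members with no minimum width, 31.4% under the 50% overlap and 47.2% in the central 300 bp, and TAAT in 54.6% at 500 bp, 55.2% under the 50% overlap, 54.9% in distal domains and 72.0% in the central 300 bp. The share of distal members with AGGTCA or GGGTCA, whose alternatives were added after seeing the data, was 32.7% under the 50% overlap, above the retained domains. Counts of members change by construction with the minimum width and overlap, and string shares with the window; the cause of the other moves was not tested.

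Leaving out the no Dox list from the rule gave 2851 members, and cutting every list to the length of the shortest gave 2564, of which 2187 were members under the main rule, so the call of 16% of members depends on list length. No paired analysis was possible because the lists carry no value per replicate, and for the same reason no replicate could be left out.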
